A study of Mus musculus with 5 samples.

Results

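Amino acid breakdown and transaminase genes of the liver were described across 5 libraries of mouse hepatocytes taken between feeding and 24 h without food. The 9 genes, of 32285 in the count table, were Sds, Sdsl, Hal, Tat, Gls2, Got1, Gpt, Gpt2 and Tdo2. They were chosen by name for their enzymatic function, with earlier results of these data known. Hepatocytes isolated from male C57BL/6J mice of wild-type genotype were captured by droplet-based single-cell RNA sequencing. Before sampling, all animals went through 3 training days, each with 16 h of fasting and 8 h of feeding. On the day of sampling they had normal chow and water with 20% sucrose for 4 h, and the fed library (0 h) was taken then. Food was then withdrawn, and libraries were made after 4, 8, 16 and 24 h. There was 1 library per time, and the sources used here do not give the age of the animals or how many livers stood behind each library. The clock hours of sampling were 13, 17, 21, 5 and 13 in time order. Fasting time, hour of day and library therefore cannot be told apart, except that the 0 h and 24 h libraries share the hour of day. The question named by the series title is how gluconeogenic expression varies in space as mice pass from feeding to fasting and starvation.

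During fasting the liver takes amino acids apart and passes their carbon skeletons to glucose production and their nitrogen to urea synthesis. Transaminases move an amino group from an amino acid to a keto acid, while dehydratases, ammonia-lyases and glutaminase release the nitrogen as ammonia. Liver cells differ along the line from the portal vein, where blood enters the lobule, to the central vein, where it leaves. Amino acid breakdown and urea synthesis are known mainly from the portal side, and glutamine synthesis from a thin layer around the central vein.

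Barcodes with 1000 or more unique molecular identifiers (UMIs, 1 per captured transcript), 500 or more genes and 2 to 30% mitochondrial UMIs were taken as hepatocytes. In time order they numbered 7826, 4567, 2716, 9125 and 4576, in all 28810 of 50000 barcodes. All 7 hepatocyte markers stood at 2636 CPM or more in every library. CPM here means UMIs of a gene per 1000000 UMIs that are not mitochondrial, summed over the hepatocytes of a library. The 14 endothelial markers summed to 113 to 328 CPM and only Plpp3 exceeded 50 CPM among them. Kupffer cell markers summed to 0.148 to 47.8 CPM and stellate markers to 1.63 to 29.5 CPM, with Clec4f and Marco at 0 at 8 h and Col1a1 at 0 at 4 and 8 h. Total UMI counts per library were 40002260 to 68330252, and the median per hepatocyte was 4391 at 16 h to 15005 at 8 h. Barcodes under 2% mitochondrial UMIs made up 53.9% and 54.1% of those that passed the other filters at 4 and 24 h, and at most 21.7% in the other 3 libraries. The libraries thus stood apart in depth and in these low-mitochondrial barcodes. Of 49740 barcode sequences, 259 occurred in more than 1 library, 73 of them among hepatocytes.

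Promoter sequences are given for 3 of the genes that have a RefSeq window. RefSeq (GRCm38.p6) gave the 250 bases before the start for 5 of the 9 genes, namely Hal, Tat, Got1, Gpt2 and Tdo2. The windows of Got1, Tat and Hal are shown because they hold at least 1 of the motifs searched. That of Gpt2, a gene highest at 8 h as Got1 and Tat were, holds none and is not printed. Each is written 5′ to 3′ on the gene's own strand. Capitals mark the CCAAT box (CCAAT, or ATTGG on the other strand), the TATA box (TATAAA, or TTTATA) and the C/EBP site (TTGCNNAA), searched on both strands with no overlap between motifs in these windows.
Got1, chr19:43524606-43524855, minus strand: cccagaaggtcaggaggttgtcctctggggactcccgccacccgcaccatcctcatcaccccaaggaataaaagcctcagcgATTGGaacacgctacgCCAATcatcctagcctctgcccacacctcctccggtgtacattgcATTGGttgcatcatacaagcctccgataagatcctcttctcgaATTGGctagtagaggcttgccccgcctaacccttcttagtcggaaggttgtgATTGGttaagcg
Tat, chr8:109990186-109990435, plus strand: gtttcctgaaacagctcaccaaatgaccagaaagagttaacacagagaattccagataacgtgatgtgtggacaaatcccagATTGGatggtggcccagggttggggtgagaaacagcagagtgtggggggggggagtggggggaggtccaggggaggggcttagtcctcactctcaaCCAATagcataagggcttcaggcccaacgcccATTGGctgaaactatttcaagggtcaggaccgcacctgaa
Hal, chr10:93488518-93488767, plus strand: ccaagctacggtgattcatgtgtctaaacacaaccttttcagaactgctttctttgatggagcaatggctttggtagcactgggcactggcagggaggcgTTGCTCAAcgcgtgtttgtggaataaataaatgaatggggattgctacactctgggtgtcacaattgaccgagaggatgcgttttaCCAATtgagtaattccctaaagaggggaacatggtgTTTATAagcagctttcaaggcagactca
The Got1 window held 5 CCAAT boxes, at positions -168, -152, -107, -64 and -12 from the start. Of 32851 RefSeq promoter windows of this length, 33.8% held at least 1 and 70 (0.213%) held 5 or more. The Tat window held 3, at -168, -72 and -40. Hal held 1 CCAAT box at -64, 1 TATA box at -28 and 1 C/EBP site at -150. A TATA box was present in 12.4% of all windows and a C/EBP site in 9.56%. The Tdo2 window lies in exons of the GENCODE M21 model, downstream of the start given there, and is not described as a start region. The glucocorticoid response element (in 0.387% of all windows), the FOXO site (GTAAACA, 3.17%) and the core of the cAMP response element (TGACG, 17.8%) were not matched in the 5 windows, that of Tdo2 included. A match is a run of letters and not a shown binding site.

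Got1 showed the widest range of the 9 genes over the time course when counted as a fold. It encodes cytosolic aspartate aminotransferase, which exchanges amino groups between aspartate and glutamate, and lies on chromosome 19 (43499752 to 43524605, minus strand, GENCODE M21 for GRCm38). Its level was 121, 555, 1331, 207 and 459 CPM at 0, 4, 8, 16 and 24 h. The 8 h library was highest and the fed library lowest, and no 2 counting intervals overlapped. The 8 h level was 11.0-fold that of the fed library (log2 3.46), above 99.6% of the 3019 genes compared. The 16 h level was only 0.155 times that at 8 h, which placed Got1 below all but 0.360% of genes in that comparison. The mitochondrial form Got2 moved over a narrower range, with 312, 401, 538, 220 and 475 CPM in time order. Of the UMIs of Got1 and Got2 together, Got1 held 28.0% when fed (exact binomial interval 27.3% to 28.7%) and 71.2% at 8 h (70.9% to 71.6%), with 58.1%, 48.4% and 49.1% at 4, 16 and 24 h. Got1 therefore went from the smaller to the larger share of the pair between 0 and 8 h.

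The other 3 transaminases followed different courses. Tat, tyrosine aminotransferase, which opens tyrosine breakdown (chromosome 8, 109990437 to 109999803, plus strand), stood at 1657, 2442, 3498, 1364 and 1304 CPM at 0, 4, 8, 16 and 24 h. Its 8 h level was 2.11-fold the fed level, and both late libraries were below the fed one. Gpt2, the mitochondrial alanine aminotransferase (chromosome 8, 85492576 to 85527560, plus strand), read 380, 483, 632, 237 and 578 CPM. It was highest at 8 h, lowest at 16 h and 2.44-fold higher at 24 h than at 16 h. Gpt, the cytosolic form (chromosome 15, 76695716 to 76699686, plus strand), had 274, 205, 249, 174 and 316 CPM and changed by less than 2-fold in every comparison with the fed library. Gpt held 41.9% of the UMIs of the Gpt pair when fed and then 29.8%, 28.3%, 42.4% and 35.4%. Both alanine aminotransferases were lower at 16 h than in the fed library, by 0.65 on the log2 scale for Gpt and 0.68 for Gpt2. These 2 directions were the same in all 13 alternative settings.

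Serine dehydratase showed 2 high points, at 8 and 24 h. Sds, which turns serine into pyruvate and ammonia (chromosome 5, 120476526 to 120483932, plus strand), stood at 127, 271, 509, 157 and 464 CPM at 0, 4, 8, 16 and 24 h. It was 4.01-fold the fed level at 8 h (95% counting interval on the log2 scale 1.96 to 2.05) and 3.65-fold at 24 h (log2 1.87, 1.82 to 1.92). At 16 h it was 1.24-fold the fed level, close to where it started. Barcodes under 2% mitochondrial UMIs, which the hepatocyte rule leaves out, held Sds at 1505 CPM at 24 h and 730 CPM at 4 h. These barcodes held less of the hepatocyte marker Alb than the rule's hepatocytes. It read 11947 against 78449 CPM at 24 h and 11835 against 57626 CPM at 4 h. With these barcodes included, the 24 h ratio to fed was 2.61 on the log2 scale for Sds and 1.48 for Sdsl. The part of these barcodes in the levels was not tested. The neighbour and relative of Sds, Sdsl (120458186 to 120472810, minus strand, 3715 bases from Sds), was scarce, at 20.2, 22.5, 55.9, 17.7 and 34.9 CPM. Only the 8 h value passed 50 CPM, and there Sdsl was 2.76-fold the fed level. Counting intervals of Sdsl overlapped between 0 and 4 h and between 0 and 16 h. Sds overlaps the end of Plbd2 and the antisense gene Gm15690 on the opposite strand, and how far similar reads of Sds and Sdsl were told apart is not stated.

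**Figure D1:**
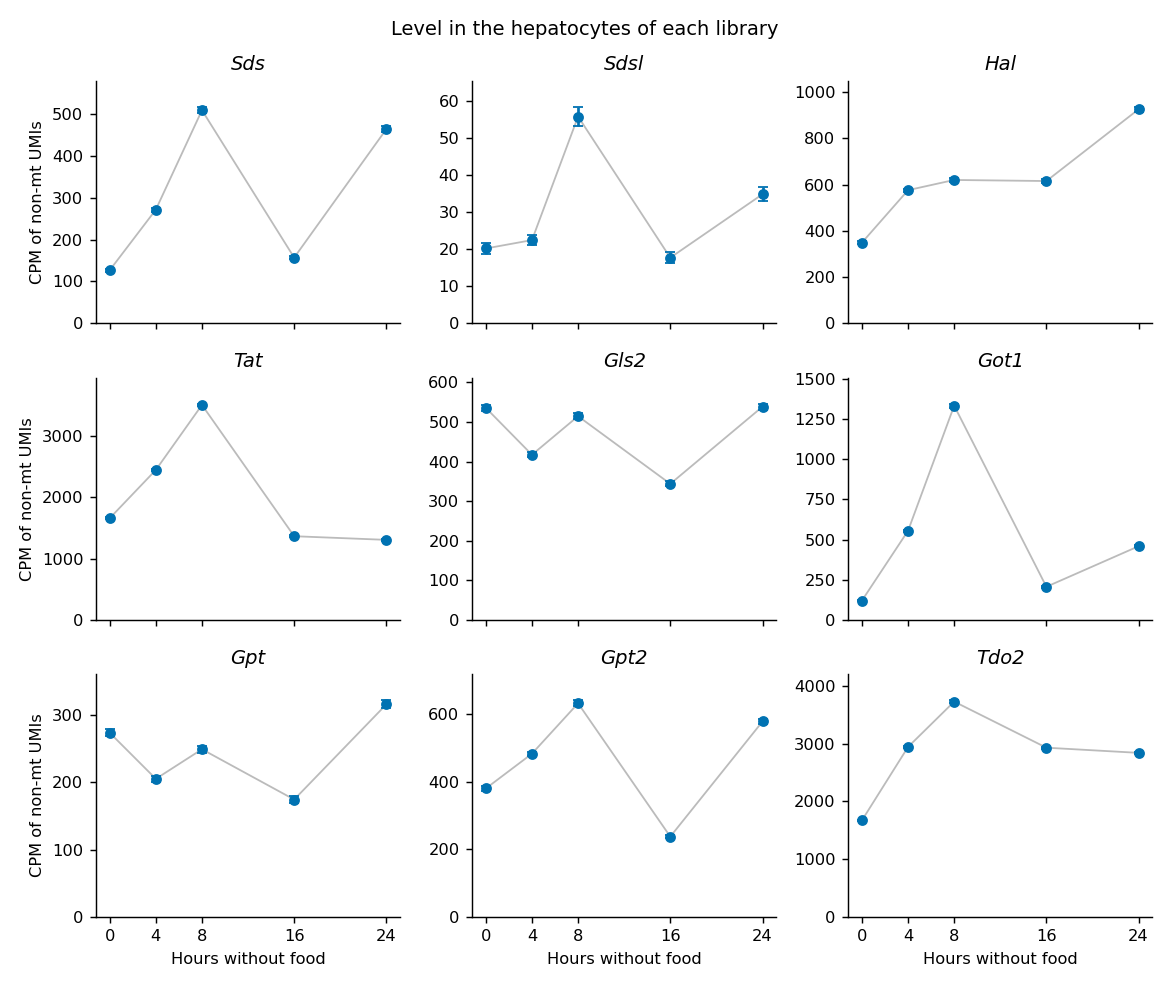
Level of each gene in the hepatocytes of each library, in CPM of non-mitochondrial UMIs, against hours without food. Points are 1 library each and bars are exact Poisson 95% intervals of the count. Got1 peaked at 1331 CPM at 8 h, Sds was high at 8 and 24 h, and Hal was highest at 24 h (926 CPM).

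The ammonia-lyase and the dioxygenase remained above the fed level in all 4 fasted libraries. Hal, histidine ammonia-lyase, which opens histidine breakdown (chromosome 10, 93488768 to 93519304, plus strand), had 349, 576, 620, 616 and 926 CPM at 0, 4, 8, 16 and 24 h. The 8 h and 16 h values could not be separated by counting error (log2 difference -0.01, -0.04 to 0.02), and the 24 h library was highest, 2.65-fold the fed level. Tdo2, tryptophan dioxygenase, which opens the kynurenine route (chromosome 3, 81957090 to 81976202, minus strand), had 1670, 2941, 3725, 2928 and 2838 CPM. It was 2.23-fold the fed level at 8 h and 1.70- to 1.76-fold at the other times, where the 4 h and 16 h intervals overlapped.

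Gls2 stayed within 2-fold of the fed level at every time, as did Gpt. Liver-type glutaminase, which releases ammonia from glutamine (chromosome 10, 128194457 to 128210004, plus strand), stood at 536, 417, 515, 344 and 539 CPM at 0, 4, 8, 16 and 24 h. The 0 h and 24 h levels did not differ beyond counting error (log2 0.01, -0.02 to 0.04). The 16 h level was lowest, 0.642 times the fed level. The direction at 8 h and at 24 h depended on the setting, and 9 of 13 settings had the sign reported in each case. At 8 h the log2 ratio of Gls2 was -0.06 as reported and 0.18 with TMM scaling. At 24 h TMM scaling kept the sign, with 0.19, and mitochondrial UMIs in the denominator turned it, with -0.06. Gpt at 8 h behaved alike, with 11 of 13 settings below the fed level.

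Counted by a fixed size, at least 2-fold with 50 CPM or more in either library, 2 of 8 members with enough signal were higher than fed at 4 h (Sds and Got1). Of all 2948 genes compared at 4 h, 5.73% passed in that direction and 5.97% in the other. At 8 h 5 of 9 were higher (Sds, Sdsl, Tat, Got1 and Tdo2), against 7.95% of 3019 genes. Sdsl reached the minimum only through the 8 h library, where it was high, and without it the count was 4 of 8. At 16 h 0 of 8 were higher, against 3.31%, and at 24 h 3 of 8 (Sds, Hal and Got1), against 6.68%. No member was at least 2-fold lower than fed at any time, where 4.04% to 11.8% of all genes were. The median log2 ratio of all 9 genes was 0.56, 1.08, -0.19 and 0.77 at 4, 8, 16 and 24 h, and that of all genes compared lay between -0.04 and 0.00. Scaling moved the all-gene balance: 49.0%, 40.2%, 45.0% and 38.6% of calls were higher in time order, and 71.7%, 62.6%, 53.5% and 56.4% with TMM scaling, which shifted the all-gene median to 0.06 to 0.20. Under TMM the members' counts were 3, 6, 0 and 3. Higher calls among all genes were then 258, 397, 115 and 288, against 169, 240, 99 and 199 as reported, so the all-gene count rose as well. A single library stood on each side of these comparisons, so that there is no replicate check and no test.

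From 8 to 16 h most of these genes went back toward the fed level or below it. Sds, Sdsl, Tat, Got1 and Gpt2, 5 of 9, were at least 2-fold lower at 16 h than at 8 h, against 9.74% of 3059 genes, or 4 of 8 without Sdsl. Hal was the exception with 616 against 620 CPM. From 16 to 24 h Sds (2.96-fold), Got1 (2.22-fold) and Gpt2 were higher again, 3 of 8 against 7.52% of 2991 genes, while 6.92% were lower. From 4 to 8 h Sdsl (2.48-fold) and Got1 (2.40-fold) were higher, 2 of 9 against 1.11% of 2797 genes, or 1 of 8 without Sdsl. The comparisons with a common library share its cells, and the values of each stand on their own.

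**Figure D2:**
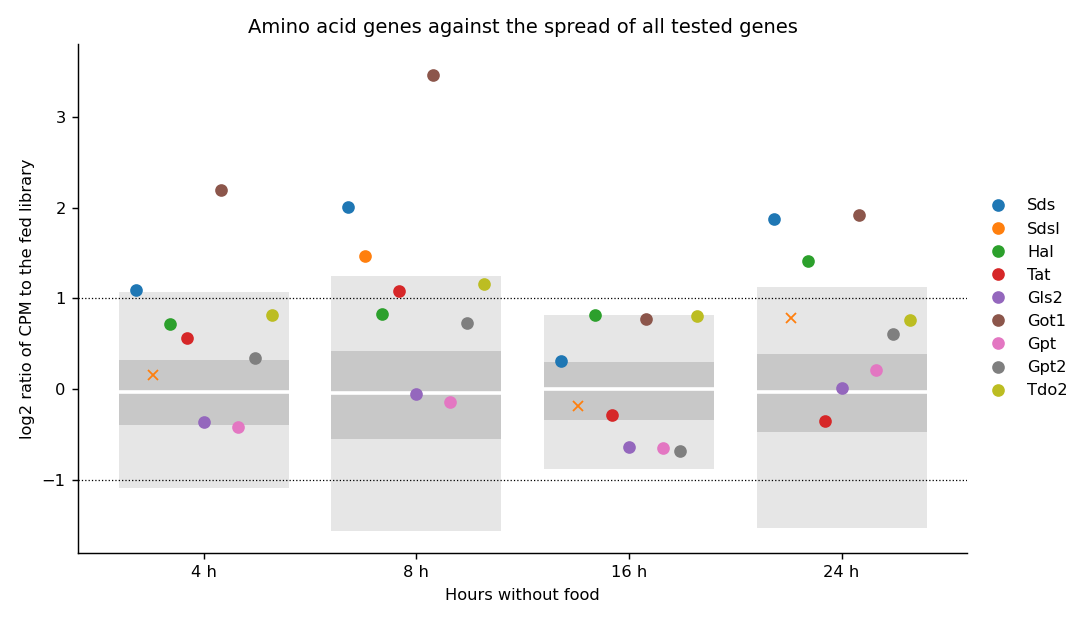
Log2 ratio of each gene to the fed library at 4, 8, 16 and 24 h. Circles are genes with 50 CPM or more in either library and the cross is Sdsl where it was below; light boxes span the 5th to 95th percentile of all genes compared, dark boxes the middle 50%, white lines the median and dotted lines 2-fold. Got1 lies above the light box at 4, 8 and 24 h, and no gene passes 2-fold at 16 h.

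A share of cells with a UMI gave the same order for Got1. Each cell was thinned to 1000 non-mitochondrial UMIs, which left out 0 to 118 hepatocytes per library. Got1 was then seen in 10.8% of fed cells (exact binomial interval 10.1% to 11.5%) and in 72.7% at 8 h (71.0% to 74.4%), with 40.0%, 18.7% and 30.8% at 4, 16 and 24 h. Without thinning the shares were 39.6%, 81.5%, 98.2%, 48.5% and 76.5%. Background was read from barcodes with endothelial markers, 228 at 0 h and 6, 15, 43 and 15 later, whose median was 1194 to 3749 UMIs against 3764 to 13549 in hepatocytes. Got1 was seen in 9.65% of them at 0 h (6.15% to 14.2%) and in 0 of 15 at 8 h, which allows up to 21.8%. Got1 was seen in 2 of 6 of them at 4 h, 7 of 43 at 16 h and 2 of 15 at 24 h. The Got1 shares at 0, 4, 16 and 24 h were thus not separable from background, while the 8 h share was above it. Sds was seen in 12.3%, 25.8%, 37.3%, 14.0% and 41.8% of thinned hepatocytes and in 39.5%, 70.3%, 81.1%, 37.4% and 91.2% without thinning. At 16 h Sds was seen in 7 of 43 endothelial-marker barcodes (16.3%, 6.81% to 30.7%), so that the hepatocyte share over all cells was not separable from that value. With only 6 such barcodes at 4 h, no member's share at that time was separable from background. At 24 h neither Sds (3 of 15, 4.33% to 48.1%) nor Hal (55.2% against 10 of 15) was separable from it. The same held for Tat and Gls2 at 24 h, Gpt at 8, 16 and 24 h, and Gpt2 at 16 h. Sdsl was not above background at any time (1.78% against 3.07% at 0 h).

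Along the portal to central axis the 9 genes fell into a set with a steep profile and a set with a shallow one. Cells of each library were ordered by the portal gene Cyp2f2 minus the central gene Cyp2e1 and cut into 5 equal parts. These are parts of a range of expression and not positions in tissue. In the fed library the portal-most part held Sds at 154 CPM and the central-most at 46.5 CPM, 3.31-fold (log2 1.73, 1.53 to 1.93). Hal read 399.6 against 108 CPM there (3.70-fold) and Gls2 599 against 181 CPM (3.32-fold). Sdsl read 21.0 against 8.02 CPM, under the minimum. Of 8 members with enough signal Sds, Hal and Gls2 passed 2-fold toward the portal end, where 1.27% of 2919 genes did and 2.74% passed toward the central end. Sds met the minimum only at the portal end, where it was high, and without it Hal and Gls2 remained. Tat (1.29-fold), Got1 (1.34-fold), Gpt (0.946-fold), Gpt2 (0.986-fold) and Tdo2 (1.05-fold) were within 2-fold.

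The profiles of the portal set fell mostly toward the central end at 0 to 16 h. Fed Sds was 154, 148, 150, 100 and 46.5 CPM from part 1 to part 5. At 8 h it was 589, 589, 614, 557 and 72.7 CPM, so that the difference lay almost wholly between the last 2 parts. At 4 h the fall of Sds was spread over more parts, with 326, 324, 312, 184 and 68.1 CPM, as was that of Hal with 737, 716, 625, 330 and 95.4 CPM. At 16 h Sds was 214, 212, 210, 114 and 19.6 CPM. Hal at 16 h read 799 CPM in part 1, 541 in part 4 and 104 in part 5, and Gls2 read 449, 311 and 81.3 CPM. Each of these 3 genes had a central-most part far below the remaining parts at 0, 8 and 16 h.

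Between these equal parts Sds and Hal had a larger portal difference at 4, 8 and 16 h than when fed, an order that did not hold in every setting. The log2 ratio of portal-most to central-most part was 1.73, 2.26, 3.02 and 3.45 for Sds at 0, 4, 8 and 16 h, or 10.9-fold at 16 h. For Hal it was 1.89, 2.95, 2.15 and 2.94, and for Gls2 1.73, 2.05, 1.35 and 2.47. Sds, Hal and Gls2 passed 2-fold at 4 and 16 h (3 of 8, against 2.05% of 2831 and 1.91% of 2936 genes, with 2.97% and 3.13% toward the central end), joined by Sdsl at 8 h (4 of 9, or 3 of 8 without Sdsl, against 1.15% of 2794). At 16 h Sds met the minimum only at the portal end, where it was high, and without it Hal and Gls2 remained. No member passed 2-fold toward the central end at any time with these cells and parts, where 2.29% to 12.5% of all genes did. The central end of Hal read 108, 95.4, 173 and 104 CPM at 0, 4, 8 and 16 h, above the fed level at 8 h (log2 0.68, 0.53 to 0.83), and its portal end went from 399.6 to 737, 768 and 799 CPM. Central Sds was 46.5, 68.1, 72.7 and 19.6 CPM. In 12 settings all these ratios of Sds, Hal and Gls2 at 0 to 16 h were above 0, but not all passed 2-fold. With 3 equal parts in place of 5 the 8 h ratio was no larger than the fed one, at 1.19 against 1.25 for Sds and 1.15 against 1.17 for Hal. With barcodes under 2% mitochondrial UMIs included, Sds had 0.95 when fed and 0.42 at 4 h, and with the mean of per-cell CPM it had 1.05 and 0.54.

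**Figure D3:**
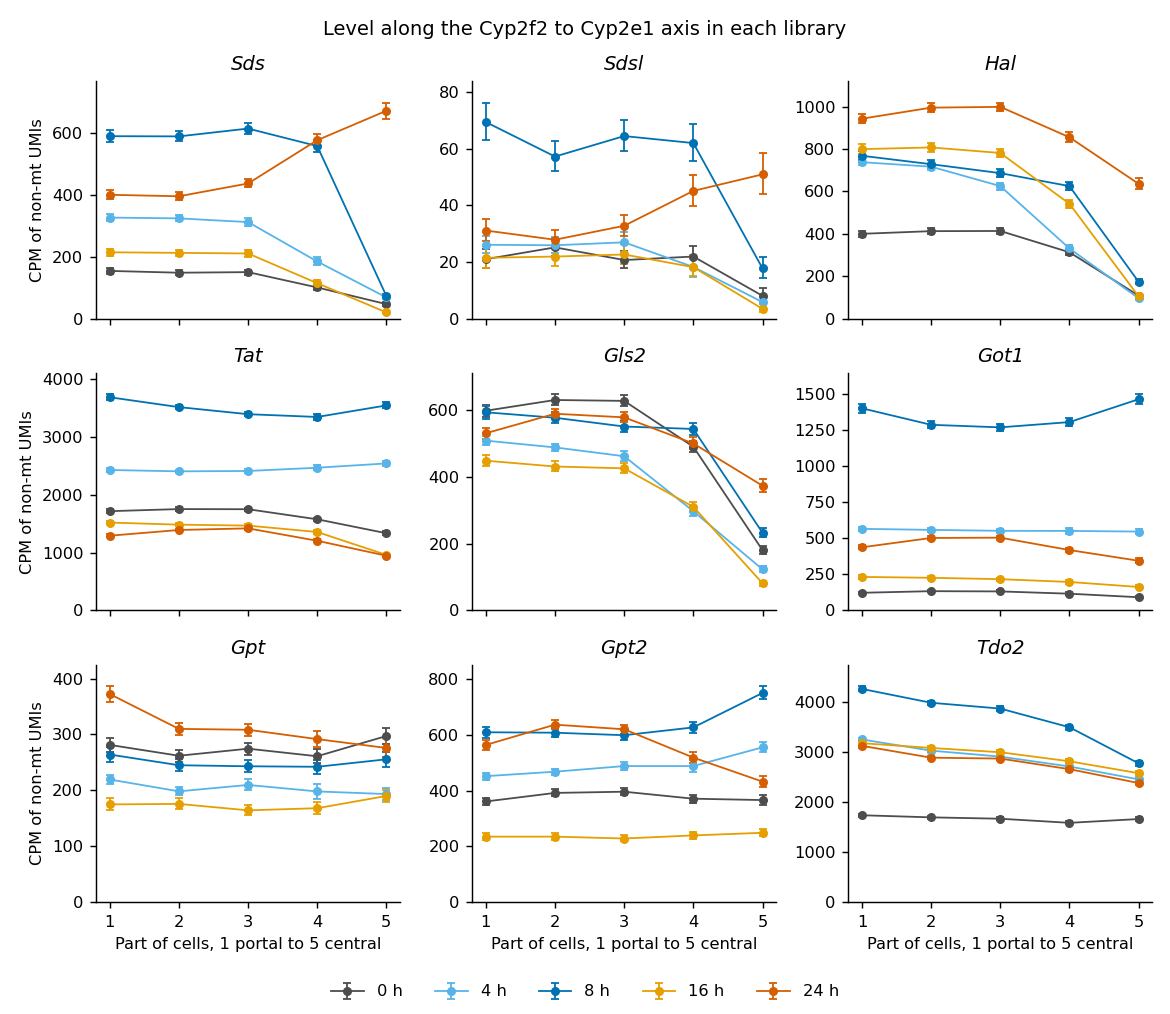
Level of each gene in 5 equal parts of the cells of each library, ordered from portal (1) to central (5), in CPM of non-mitochondrial UMIs. Lines are libraries by hours without food and bars are exact Poisson 95% intervals. Sds, Sdsl, Hal and Gls2 drop toward part 5 at 0 to 16 h, whereas Got1, Tat, Gpt and Gpt2 stay within 2-fold between the outer parts and Sds at 24 h climbs to 671 CPM.

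At 24 h no portal difference between the outer parts reached 2-fold. Sds read 399.8 CPM in the portal-most part and 671 CPM in the central-most (log2 -0.75, -0.82 to -0.67), and Sdsl 31.1 against 51.0 CPM. Hal read 943 against 635 CPM (1.48-fold) and Gls2 531 against 374 CPM (1.42-fold). None of the 9 members passed 2-fold in either direction, where 2.28% of 2763 genes passed toward the portal and 12.5% toward the central end. In 2 of 12 other settings Sds and Sdsl did pass toward the central end. The central-most part at 24 h had a median of 2775 UMIs and 8.11% mitochondrial UMIs, against 10181 UMIs and 19.5% in the portal-most part. Depth was also uneven at 0 h (2694 UMIs in the central-most and 5337 in the portal-most part) and at 4 h (4564 and 16514.5), so the portal ratios at those times rest on uneven parts too. In the central-most part 21.3% of cells at 24 h had no Cyp2e1 UMI, against 0% to 5.43% at the other times, and 52.2% had no Cyp2f2 UMI, against 50.1% to 84.2%. Cyp2f2 and Cyp2e1 sorted the cells, so a gap in them between the outer parts is set by the ordering. That of Cyp2f2 was 4.22-fold at 24 h and 7.44- to 79.6-fold before. Glul, glutamine synthetase, did not sort the cells and was higher in the central-most part at 0 to 16 h (404 against 156 CPM when fed). At 24 h Glul read 50.7 CPM in the central-most and 58.0 CPM in the portal-most part.

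Limiting the cells to 5000 or more UMIs and 5 to 30% mitochondrial UMIs, a setting chosen after the depth of the central-most part was seen, gave a Sds level slightly higher at the portal end. Sds then read 398 against 363 CPM at 24 h (log2 0.13, 0.05 to 0.22). Hal read 916 against 825 CPM (log2 0.15), Gls2 529 against 496 CPM (log2 0.09) and Sdsl 32.2 against 30.8 CPM (log2 0.07, -0.24 to 0.37). In the same setting Sds had log2 ratios of 1.62, 3.83, 2.53 and 3.79 at 0, 4, 8 and 16 h, Hal 1.15, 2.65, 1.91 and 3.07, and Gls2 0.88, 1.66, 1.21 and 2.40. Other settings gave a larger central excess at 24 h. With barcodes under 2% mitochondrial UMIs included, the log2 ratio was -1.52 for Sds and -1.46 for Sdsl, and with the mean of per-cell CPM it was -1.13 and -1.05, so that both genes passed 2-fold toward the central end. With 3000 or more UMIs alone Sds stayed higher at the central end at 24 h (log2 -0.34). Between these outer parts a portal difference of 2-fold or more was absent at 24 h with and without each filter.

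**Figure D4:**
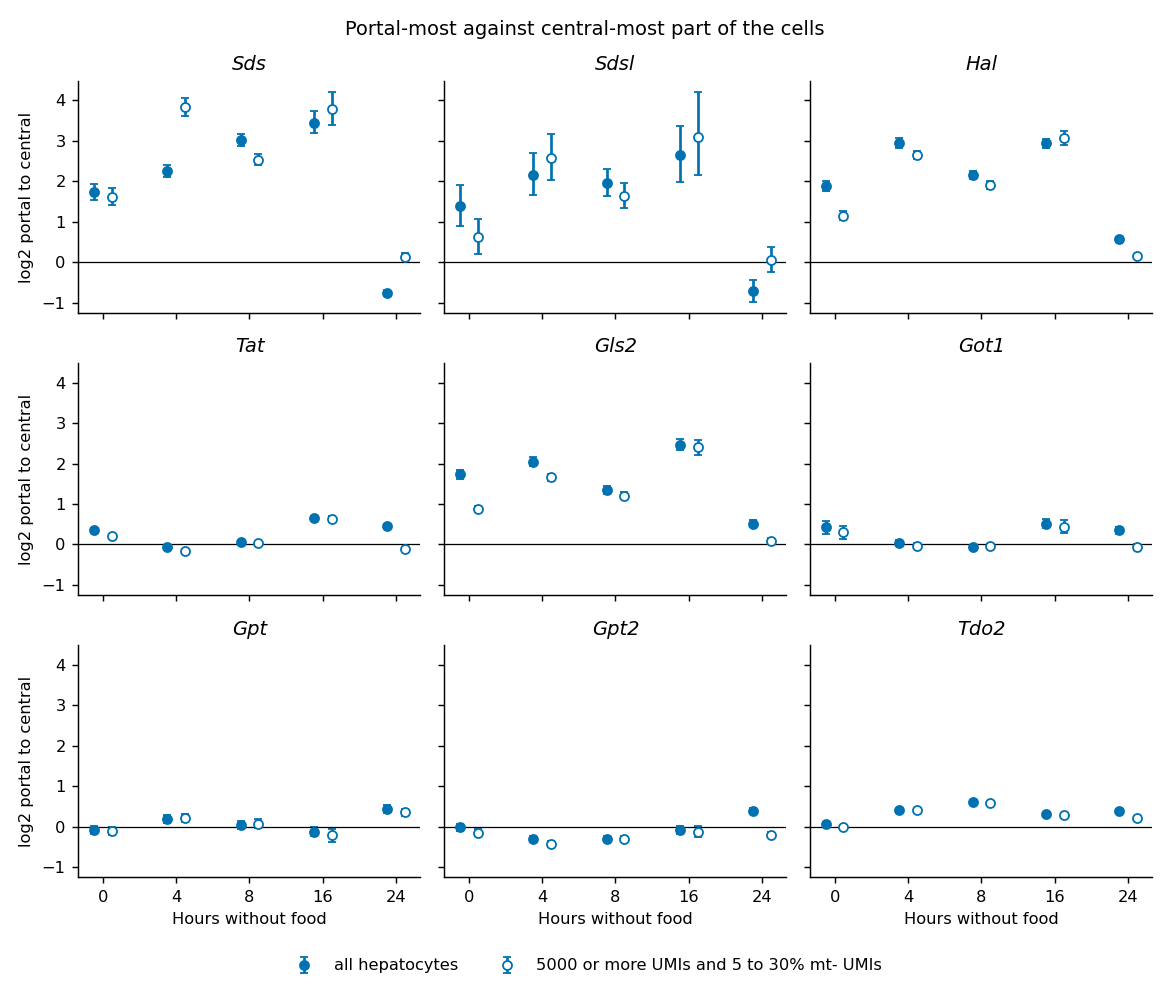
Log2 ratio of the portal-most to the central-most part of the cells at each time, above 0 where the portal part is higher. Filled points use all hepatocytes, open points cells with 5000 or more UMIs and 5 to 30% mitochondrial UMIs, and bars are exact 95% intervals of the counts. Sds, Sdsl, Hal and Gls2 lie above 0 from 0 to 16 h and near or below 0.57 at 24 h.

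Equal parts rank cells within a library, so cells were also split at fixed Cyp2e1 levels in these deeper cells, likewise after the data were seen. Cells with under 1 Cyp2e1 UMI per 10000 were set against cells with 20 or more. At 24 h only 187 cells were in the high class, against 388 to 825 in the other libraries. Sds was 7.21-, 6.66-, 8.63- and 10.6-fold higher in the low-Cyp2e1 cells at 0, 4, 8 and 16 h and 2.31-fold at 24 h (403 against 174 CPM). Hal was 4.24-, 3.64-, 4.00- and 5.35-fold higher and 1.60-fold at 24 h (993 against 622 CPM), and Gls2 2.73-, 2.36-, 2.38- and 3.83-fold and 1.55-fold at 24 h. Cyp2f2, which was not used for this split, was 3.90- to 4.91-fold higher at 0 to 16 h, and read 1828 against 1221 CPM at 24 h. Sds in high-Cyp2e1 cells stood at 21.3, 48.9, 69.3 and 19.4 CPM before reaching 174 CPM. By this split the fold of Sds at 4 h and those of Hal at 4 and 8 h were below the fed ones. Sds was still higher in the low-Cyp2e1 cells at 24 h, with the lowest fold of the 5 libraries. Glul, glutamine synthetase, was not used for this split either. It read 166 against 426, 34.2 against 259, 51.0 against 134 and 27.6 against 228 CPM at 0, 4, 8 and 16 h. At 24 h it read 55.6 against 56.6 CPM, so the 24 h classes were not set apart by Glul as the earlier ones were. Whether the difference between libraries exceeds that between animals cannot be told from 1 library each.

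The other 5 genes stayed within 2-fold between the outer parts. Got1 at 8 h read 1398 CPM in the portal-most and 1460 CPM in the central-most part (log2 -0.06, -0.11 to -0.02). The Got1 ratio to fed was 3.52 on the log2 scale in the portal-most and 4.01 in the central-most part, so that both ends were raised. Tat at 8 h read 3692 against 3551 CPM. Gpt2 leaned to the central side at 8 h with 610 against 751 CPM (log2 -0.30, -0.36 to -0.24), and 12 of 12 settings had that sign. Tdo2 leaned to the portal side in the fasted libraries, with log2 ratios of 0.41, 0.62, 0.30 and 0.39 at 4, 8, 16 and 24 h, and 4252 against 2768 CPM at 8 h. When fed its ratio was 0.06, and -0.07 by the fixed Cyp2e1 split. At 16 h Tat (1521 against 960 CPM) and Got1 (231 against 162 CPM) were 1.58- and 1.43-fold higher at the portal end. None of these differences reached 2-fold.

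The thinned shares of cells were likewise higher at the portal end for Sds at 0 to 16 h. Sds was seen in 15.1% of portal-most and 7.41% of central-most cells at 0 h, in 27.2% and 16.4% at 4 h, in 45.1% and 10.1% at 8 h and in 18.8% and 1.74% (1.18% to 2.46%) at 16 h. The ratio of the shares was thus smaller at 4 h than when fed, unlike that of the CPM values. At 24 h the order was turned, 32.9% against 55.6%, in the parts that hold the shallow cells. Hal was seen in 54.6% and 10.6% at 16 h and in 59.2% and 47.5% at 24 h. Got1 at 8 h was seen in 78.0% and 70.9%, a far smaller gap. In the endothelial-marker barcodes Sds was seen in 3.51% at 0 h (1.53% to 6.80%), 1 of 6 at 4 h, 0 of 15 at 8 h, 7 of 43 at 16 h and 3 of 15 at 24 h. The shares of Sds whose interval lay above that background were the portal-most at 0 and 8 h and the central-most at 24 h. The other Sds shares, and both shares of Hal at 24 h, were not separable from background or lay below it.

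Other genes of amino acid breakdown were counted by the same rule. Of 57 other amino acid breakdown genes, 46 had enough signal at 4 h, and 2 were at least 2-fold higher and 1 lower than fed. The counts were 5 higher and 1 lower of 46 at 8 h, 2 and 1 of 45 at 16 h, and 2 and 3 of 46 at 24 h. Of all genes, 5.73%, 7.95%, 3.31% and 6.68% were higher at those times, and 5.97%, 11.8%, 4.04% and 10.6% were lower. Acmsd, of the kynurenine route, reached the minimum only through the 8 h library (25.6 CPM when fed and 66.5 CPM at 8 h), and without it 4 of 45 were higher at 8 h. Their median log2 ratios were 0.24, 0.35, 0.02 and 0.23. Glul, glutamine synthetase, the enzyme opposite to Gls2, was the gene that was lower each time, at 202 CPM when fed and 89.4, 65.8, 98.0 and 52.8 CPM afterwards. Prodh, proline dehydrogenase, was 3.01-fold higher at 8 h (218 against 72.3 CPM). Oat, ornithine aminotransferase, read 146, 302, 101, 251 and 26.1 CPM in time order, 2.07-fold the fed level at 4 h and lowest at 24 h. Csad, of the route from cysteine to taurine, was 3.83-fold higher at 16 h (412 against 107 CPM) and at 49.4 CPM at 24 h, while Cdo1, cysteine dioxygenase, was 2.13-fold higher at 16 h (1886 against 887 CPM). Afmid, the kynurenine formamidase that acts after Tdo2, was 2.13-fold higher at 24 h (222 against 105 CPM). All 7 phenylalanine and tyrosine genes, which surround Tat, and all 3 further histidine genes, which follow Hal, were within 2-fold of fed at every time.

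Of 16 transporters of amino acids, 9 had enough signal at each time, and 1, 2, 1 and 1 were at least 2-fold higher than fed at 4, 8, 16 and 24 h. Of 14 regulators, 2 of 9, 2 of 8, 0 of 7 and 1 of 8 were, beside 5.73%, 7.95%, 3.31% and 6.68% of all genes. Foxo1 and Ppargc1a reached the minimum only through fasted libraries in which they were high, and without them 0 of 7, 1 of 7 and 0 of 7 regulators were higher at 4, 8 and 24 h. Slc7a2, a carrier of arginine, lysine and ornithine, was 2.84-, 2.30-, 2.44- and 2.90-fold higher at these times, from 240 CPM when fed. Slc25a22, a mitochondrial glutamate carrier, was 3.66-fold higher at 8 h (293 against 79.9 CPM), and Slc25a44, a mitochondrial carrier of branched-chain amino acids, was lower at 16 h (28.8 against 70.0 CPM). Foxo1, a transcription factor that insulin signalling restrains, read 29.6 CPM when fed and 80.8, 96.0 and 70.0 CPM at 4, 8 and 24 h. Ppargc1a, a coactivator of fasting genes, was 2.34-fold higher at 4 h, from 24.0 CPM when fed. Klf15, a transcription factor known for amino acid breakdown and named here after its values were seen, was 2.12-fold higher at 8 h (220 against 104 CPM).

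Over the 25 combinations of library and part of the axis, Sds was most like Ftcd (Pearson r 0.95 across these points) and Sfxn1 (0.88). Candidates were the 2686 genes of 50 CPM or more on average, which left out Sdsl (0.93 with Sds). Ftcd acts late in histidine breakdown. The closest genes to Hal were Etnppl (0.98) and Hsd17b13 (0.96), to Gls2 Ccl9 (0.96) and Uroc1 (0.93), and to Got1 Fkbp5 (0.98) and Sec14l4 (0.98). Gpt2 was closest to Afmid (0.98), Tat to Cyb5r3 (0.96), Gpt to Apoc3 (0.90) and Sdsl to Sds (0.93). Tdo2 had r 0.93 with Angptl4. Within the 9 genes, Sds and Hal had r 0.86, Hal and Gls2 0.84, Got1 and Tdo2 0.80, Sdsl and Gls2 0.79, Sdsl and Hal 0.77, Sds and Gls2 0.77, Got1 and Gpt2 0.75 and Got1 and Tat 0.74, whereas Hal and Tat had 0.01. The points share 5 libraries and their depth, log2(CPM + 5) of 2686 genes was compared, and the values describe likeness with no test.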

How the data were processed

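Single hepatocytes were captured with 10x Genomics 3′ v3 chemistry, per the labels' protocols. The authors deposited a matrix of UMI counts, not normalized, that Cell Ranger 6.0.1 made per the file headers, on mm10 per the submitters' processing notes. The annotation version, any subsampling and the choice of 10000 barcodes per library are not given in the sources used here. Cells were classed here by the filters in the text. Library names in the deposited barcode table were matched to the labels.

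Per library, hepatocyte UMIs were summed by gene and scaled to non-mitochondrial UMIs (CPM). With 1 library per time there is no test, p-value or standard error. Intervals are 95% and exact: Poisson for CPM, conditional binomial for ratios and Clopper-Pearson for shares. They cover counting error only. The axis score of a cell is the z-score within its library of ln(1 + Cyp2f2 UMIs per 10000) minus that of Cyp2e1. No doublet caller was run and doublets were kept. One alternative left out the 5% of barcodes with the most UMIs. Scripts were tested on simulated data. Gene positions are from GENCODE M21, which held 99.6% of the gene IDs and all 9 members. TMM scaling came from edgeR 4.0.16 in R 4.3.3, and intervals from scipy 1.17.1 in python 3.11.15.

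The members and lists were chosen with earlier results of these data known. All 9 members are named. Of the other lists, the rule names the 3 largest and the 3 smallest log2 ratios to fed past 2-fold, the paralog Got2, and genes most like a member. Some results under this rule are not reported here.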

Additional observations from a re-analysis of the deposited data

Results flagged for a closer look

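The response of Sds at 16 h differed in direction between the ends of the axis. In the portal-most part Sds was above the fed level by 0.48 on the log2 scale (0.36 to 0.59, 214 against 154 CPM), and in the central-most part it was below it (log2 -1.25, -1.57 to -0.93, 19.6 against 46.5 CPM). The portal minus central difference was 1.72. Each end is 1 library per time, and the difference was not tested. In cells with 5000 or more UMIs and 5 to 30% mitochondrial UMIs the values were 210 against 153 CPM at the portal end and 15.2 against 49.6 CPM at the central end. With the same cells split at fixed Cyp2e1 levels, Sds was 205 against 153 CPM in low-Cyp2e1 cells and 19.4 against 21.3 CPM in high-Cyp2e1 cells, so that the central fall was far smaller there.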

How the results depend on the processing

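No level ratio or portal ratio of a member that passed 2-fold as reported changed direction. The 24 h portal ratios of Sds and Sdsl, under 2-fold as reported, kept their sign in 11 of 12 settings. With 5000 or more UMIs and 5 to 30% mitochondrial UMIs they were 0.13 and 0.07 on the log2 scale. Alternatives were 13 for levels and 12 for the axis, all run. No paired analysis was possible because there is 1 library per time, for which the shared number 1 is only a name, and no library could be left out. Members at least 2-fold higher at 4 h were 1 with mitochondrial UMIs in the denominator and 4 with a 1.5-fold limit. The 1.5-fold limit also gave 3 higher and 3 lower at 16 h and 5 higher at 24 h. Members central at 24 h were 2 with barcodes of 0 to 30% mitochondrial UMIs and 2 with the mean of per-cell CPM, and members portal at 8 h were 2 with 3 equal parts in place of 5. The 57 other amino acid genes past 2-fold at 4 h were 5 with TMM, 6 with median-of-ratios scaling, 1 with mitochondrial UMIs in the denominator and 5 with no CPM minimum, and at 8 h 12 with TMM. With no minimum they were 5 at 16 h and 8 at 24 h, and with 1.5-fold 11, 17, 8 and 16 in time order. Transporters and regulators numbered 5, 7, 4 and 5 with a minimum of 10 CPM, 7, 9, 4 and 7 with none, 5, 7 and 6 at 4, 16 and 24 h with 1.5-fold, and 4 at 24 h with 0 to 30% mitochondrial UMIs. All genes numbered 709, 1250, 476 and 993 with 10 CPM, 5787, 6616, 5162 and 6164 with no minimum and 890, 1239, 707 and 1104 with 1.5-fold, against 345, 597, 220 and 516 as reported. More genes are compared under the lower minimum, and the cause of the other moves was not tested. Counts of Sdsl are small (595 to 1891 UMIs per library), which limits its ratios.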
